A study of Rattus norvegicus with 24 samples.

Results

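Heat shock proteins and chaperones were followed in the hearts of rats that had received airborne particles, a leachate of those particles, zinc sulfate or saline by repeated instillation into the airways. The set was drawn by gene symbol and by no measured value. It holds the heat shock protein families Hspa, Hsph, Hsp90, Hspb, Hspd and Hspe, the J-domain proteins Dnaja, Dnajb and Dnajc, the chaperonin subunits Cct and Tcp1, the Bag cochaperones, St13, Stip1, Ahsa1 and the regulator Hsf1. For each gene the brightest of its single-symbol probe sets was taken, and a probe set shared by Hspa1a and Hspa1b and a pair of Hsp90aa1 probe sets that also carry the symbol of an Hsp90aa1 pseudogene were added. This gave 72 members of the 15866 probe sets tested.

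Chaperones bind unfolded or unstable proteins and help them to fold, to assemble or to be degraded. HSP70 proteins do so in cycles of ATP use that J-domain proteins start and nucleotide exchange factors such as the Bag proteins end, HSP90 proteins act later on kinases and receptors, and the chaperonins enclose a client in a ring. Many of these genes are switched on by the transcription factor HSF1 when proteins are damaged by heat, oxidants or metals, and working heart muscle holds large amounts of the small heat shock proteins, which guard the contractile filaments.

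The animals were male Wistar Kyoto rats, 12 to 14 weeks old, which received 1 mL/kg intratracheally once a week, and hearts were taken 48 hr after the last instillation. The groups were zinc sulfate, PM-L (what saline leached out of PM-HD, with no solids), PM-LD and PM-HD (oil combustion particles, which the labels give with 7.25 µg zinc and 1.5 µg nickel per mg for PM-LD and 14.5 µg zinc and 3.0 µg nickel per mg for PM-HD), MSH (Mount St. Helens ash, which holds no water-soluble zinc) and saline, with 4 rats and 4 arrays each. The zinc sulfate solution is given as 14.5 µg/mL in the sample labels and as 33.4 µg/mL in the protocol. In the study's methods PM-LD was the PM-HD particle sample at a lower dose, zinc sulfate was matched to the zinc of PM-HD, and rats of the 8-week schedule got more zinc at each instillation than those of a longer schedule, to which the protocol's figure belongs. Exposure lasted 8 weeks for zinc sulfate, PM-HD, MSH and saline, and for the PM-L and PM-LD arrays the sources used here do not give the weeks. The left ventricle with the septum was measured on the Affymetrix Rat 230A array, 1 rat to an array, and the design asked whether effects on the heart come from zinc that leaches off the particles or follow from inflammation of the lung where particles settle.

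Across the 24 arrays the median signal lay between 205.5 and 278.2, and every array had been scaled to the same trimmed mean of 500.1. Ventricular muscle transcripts were bright on every array, with a mean log2 signal of 14.3 to 14.7 over the 9 that were measured. Atrial transcripts (Myl7, Myl4, Sln and Nppa) had a mean log2 signal above 11 on 6 arrays, 1 of them zinc sulfate, 2 PM-L, 1 PM-LD, 1 MSH and 1 saline. The Gapdh 3′/5′ ratio, the signal of a control probe set at the far end of the Gapdh RNA over that at its near end and read as a sign of RNA quality, had a median of 1.50 in zinc sulfate, 2.33 in PM-L, 1.56 in PM-LD, 3.03 in PM-HD, 2.76 in MSH and 1.87 in saline, and was above 3 on 9 arrays spread over all 6 groups. A difference between groups in such whole-tissue RNA can come from fewer cells of a type or from less RNA per cell, and these cannot be told apart.

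HSF1 acts through heat shock elements, so the promoter stretches of Dnaja1, Hsph1 and Hspe1, which hold that motif in its 3-unit form (GAANNTTCNNGAA or TTCNNGAANNTTC, both strands), are shown, and beside them that of Hspa5 with the endoplasmic reticulum stress element (CCAAT and CCACG with 9 bases between, both strands, a motif chosen after seeing the data). Capitals mark the motif. The sequences are from RefSeq, build GRCr8, each written 5′ to 3′ on the strand of its gene. They lie at chr5:60638405-60638433 on the plus strand for Dnaja1, chr12:10427312-10427364 on the plus strand for Hsph1, chr9:64084242-64084299 on the plus strand for Hspe1 and chr3:38452953-38453011 on the plus strand for Hspa5.
Dnaja1: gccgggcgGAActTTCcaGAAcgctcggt
Hsph1: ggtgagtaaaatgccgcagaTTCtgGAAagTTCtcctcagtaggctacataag
Hspe1: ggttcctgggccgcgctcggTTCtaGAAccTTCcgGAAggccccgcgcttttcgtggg
Hspa5: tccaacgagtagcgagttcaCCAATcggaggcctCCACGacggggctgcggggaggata

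Of the 71 genes of the set, 57 were matched in a RefSeq table of 33469 promoters that run from 250 bases before to 50 bases after the start of the gene. The 3-unit motif was in 5 of the 57 (8.77%), namely Cct4, Dnaja1, Hspd1, Hspe1 and Hsph1, and in 0.798% of all promoters of the table. In Dnaja1 it lay just past the start, at bases 9 to 21, whereas in Hsph1 it lay 36 to 24 bases before it. Hspe1 and Hspd1 are neighbours on opposite strands and share 1 element, which joins 4 units without a gap. A motif of 2 units (GAANNTTC or TTCNNGAA) was in 16 (28.1%), against 15.9% of all promoters, and the metal response element (TGCACNC or TGCGCNC, both strands) in 21 (36.8%), against 24.2%. The endoplasmic reticulum stress element was in Hspa5, Hsp90b1 and Dnajc3 (5.26%), all of which encode proteins of that compartment, against 0.0657% of all promoters. None of these motifs was in the windows of Hsp90ab1, Hspa1a or Hspa4, and the promoters of Hsp90aa1, Hspa1b, Hsf1, Hspa12a, Dnaja2, Dnajb4, Dnajc2, Dnajc8, Dnajc12, Dnajc15, Dnajc22, Dnajc24, Hspb2 and St13 were not looked at. A match is a run of letters and was not tested as a binding site.

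Most members were well measured in these hearts, since 58 of the 72 had a mean signal above the median probe set and 9 had a mean signal under 100. The 11 HSP70 members had mean signals of 40.9 to 4264, with Hspa5, the HSP70 of the endoplasmic reticulum, at the top. The 4 HSP90 probe sets lay between 2926 and 10035, the 31 J-domain members between 25.4 and 3444, the 7 small heat shock members (with the Hspb1-associated Hspbap1) between 56.1 and 16045, the 10 chaperonin members between 197 and 6470, the 8 cochaperones between 257 and 3839, and Hsf1 at 455. These signals describe the probe sets and not the relative amounts of the RNAs, because each probe set binds with its own strength. Hspa8, the constitutive HSP70, was only on a probe set with several symbols and is not a member.

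A member was called where the limma p-value was under 0.05 and the fold change above 1.25 or below 0.75, the thresholds the study itself applied, in a single fit of all 24 arrays. Against saline few members passed. MSH had 2 higher and 0 lower of 72 (3.18% of all probe sets were called in that comparison), PM-HD had 0 (3.22% of all, and 1 member with a limma p under 0.05), PM-LD had 0 higher and 1 lower (4.11% of all), PM-L had 1 higher and 0 lower (4.25% of all) and zinc sulfate had 1 higher and 0 lower (3.94% of all). Between zinc sulfate and MSH, 1 member was higher and 7 were lower in zinc sulfate, so that 11.1% of the members were called beside 5.89% of all probe sets, and 9.72% of the members were lower beside 2.75% of all. Between PM-HD and PM-LD, 1 was higher and 2 were lower, or 4.17% beside 4.66% of all. All comparisons with saline use the same 4 saline rats, and the MSH rats stand in both the MSH and the zinc sulfate comparisons. A moderated F test of any difference among the 6 groups gave a p-value under 0.05 for 4 members, Hspa12a, Dnaja1, 1 Hsp90aa1 probe set and Hspa5, where 5.01% of all probe sets passed. No member passed after Benjamini-Hochberg adjustment over all 15866 probe sets in limma (lowest adjusted p = 0.524, Dnaja1 in zinc sulfate against MSH), so each call below rests on an unadjusted p. With no fold limit, 2 members had a limma p under 0.05 in MSH, 1 in PM-HD, 1 in PM-LD, 2 in PM-L and 1 in zinc sulfate against saline, 9 in zinc sulfate against MSH and 4 in PM-HD against PM-LD. The shares of all probe sets printed for these comparisons use both thresholds, and those at the p limit alone were not computed.

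**Figure D1:**
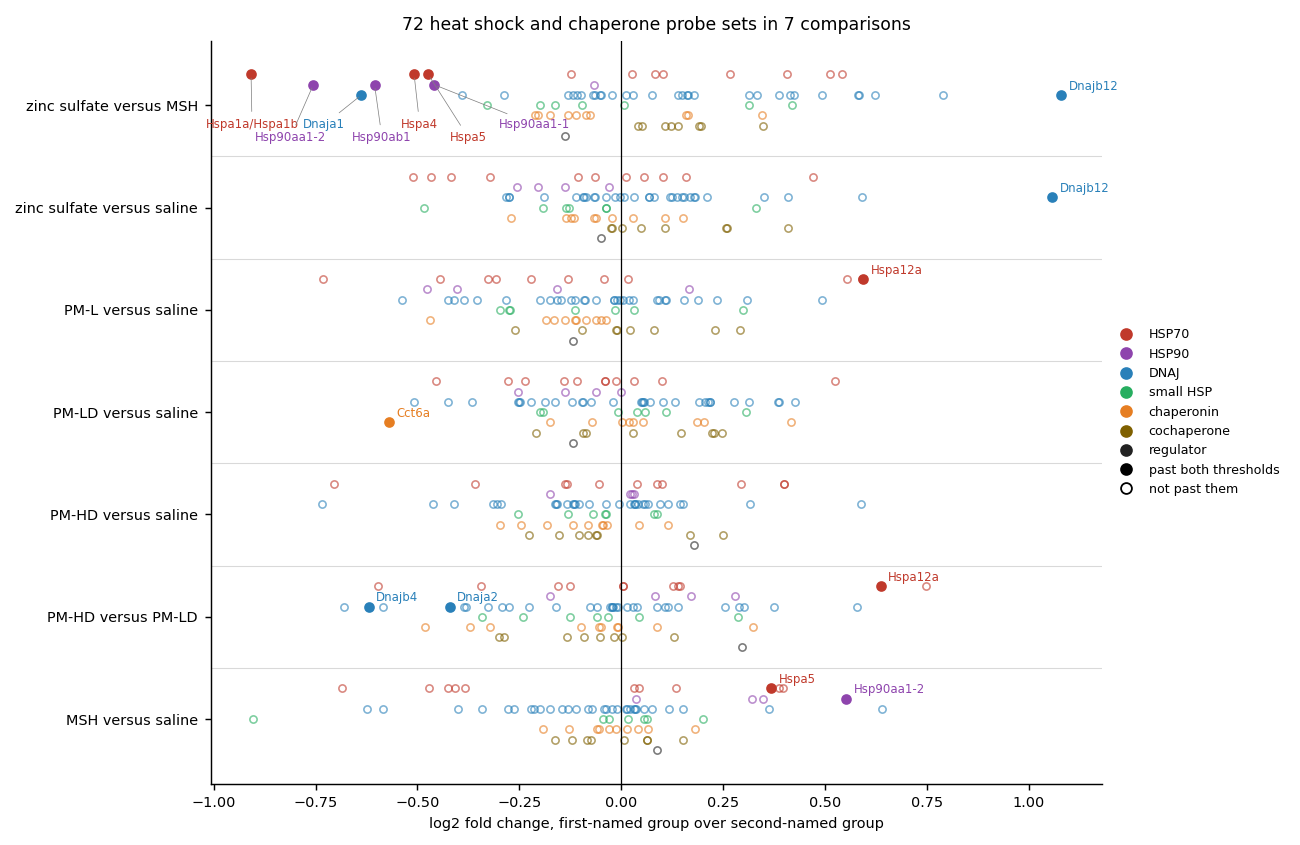
Log2 fold change of the 72 members (points, coloured by family) in the 7 comparisons, one comparison to a row, with filled points for members past both thresholds. The filled points on the negative side are most numerous in zinc sulfate against MSH, where 7 of the 72 members were lower.

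Dnaja1, a J-domain partner of the cytosolic HSP70 proteins, had the lowest p of all members. Its signal was 1232.5, 1092.4, 1383.5 and 859.6 in the zinc sulfate rats, against 1609.0, 1464.0, 2361.4 and 1637.9 in the MSH rats. Every zinc sulfate rat lay below every MSH rat. The difference was -0.64 (SE 0.18) on the log2(signal + 16) scale used for all folds here, with a limma p of 0.00184 and an adjusted p of 0.524, and the exact two-sided permutation p of 0.0286 is the smallest that 4 rats against 4 allow. The saline rats, at 1609.9, 1123.4, 1518.9 and 1323.6, overlapped both groups, and neither zinc sulfate (-0.28, SE 0.18) nor MSH (0.36, SE 0.18) was called against saline. Mean signals were 1156 in PM-L, 1247 in PM-LD and 1260 in PM-HD, beside 1142 in zinc sulfate and 1768 in MSH.

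A second probe set of Dnaja1, which is no member and was singled out after its values were seen, separated the groups more sharply. It read 722.7, 707.0, 828.6 and 532.6 in zinc sulfate, 783.8, 640.6, 838.1 and 768.2 in PM-L, 668.6, 781.3, 738.3 and 580.4 in PM-LD, 1085.4, 1023.6, 912.1 and 1027.6 in PM-HD, 1049.9, 1184.9, 1165.2 and 1021.5 in MSH, and 942.8, 837.9, 971.5 and 970.9 in saline. The zinc sulfate, PM-L and PM-LD rats all lay below the PM-HD and MSH rats, and the saline rats lay between, overlapping PM-L by a single reading and PM-HD in part. The difference of zinc sulfate from MSH was -0.63 (SE 0.13, p = 8.37e-05, adjusted p = 0.200 in limma, exact permutation p = 0.0286), which ranked 4 of the 15866 probe sets by p. PM-HD stood 0.52 above PM-LD (SE 0.13, p = 0.000577, adjusted p = 0.763 in limma, exact permutation p = 0.0286). PM-LD was -0.41 from saline (p = 0.00451) and zinc sulfate -0.38 (p = 0.00759), with all 4 exposed rats below all 4 saline rats and an exact permutation p of 0.0286 in each case, but their folds of 0.752 and 0.767 did not pass the limit, and PM-L, at -0.29 (SE 0.13), did not either. The first probe set gave 0.03 (SE 0.18) for PM-HD against PM-LD, so the 2 probe sets of Dnaja1 agree in zinc sulfate against MSH and not there. Rat by rat, with the group means removed, they correlated at r = 0.317 over the 24 rats.

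Dnajb1, the stress-inducible J-domain protein, read 361.1, 265.4, 406.2 and 245.3 in zinc sulfate and 475.1, 343.0, 537.5 and 461.7 in MSH. The groups overlapped in part, and its difference of -0.39 (SE 0.18, limma p = 0.0423, exact permutation p = 0.0857) came with a fold of 0.762 and was not called. A dimmer probe set of Dnajb1, which is not a member, gave 0.10 for zinc sulfate against MSH.

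**Figure D2:**
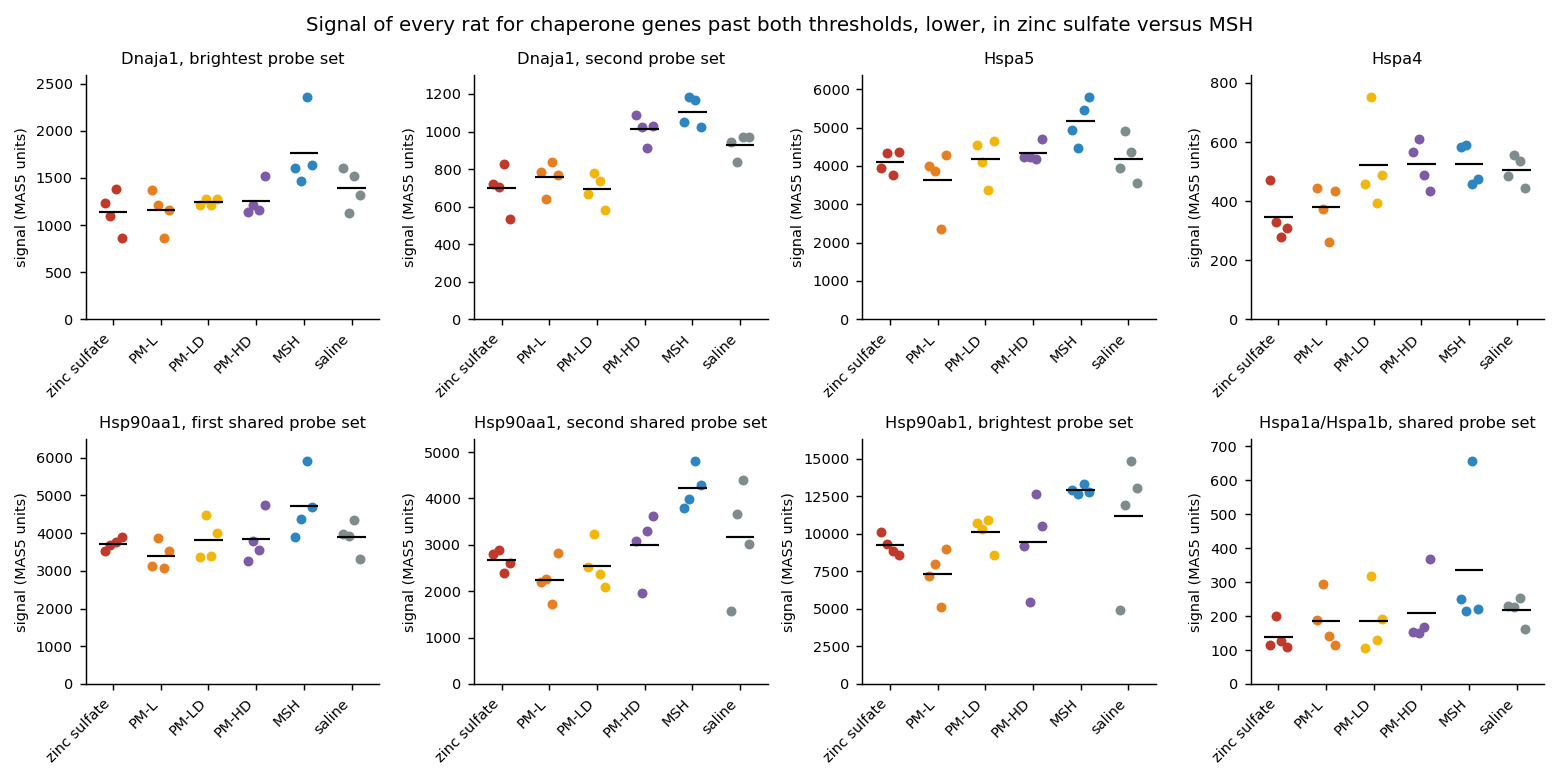
MAS5 signal (y axes, linear) of every rat in the 6 exposure groups (x axes), with a black line for each group's mean, for the 7 members called lower in zinc sulfate against MSH and for the second Dnaja1 probe set. For the second Dnaja1 probe set the zinc sulfate rats read 532.6 to 828.6 and the MSH rats 1021.5 to 1184.9.

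Hspa5, known as BiP, holds new proteins in the endoplasmic reticulum and restrains the sensors of the unfolded protein response. Its signal was 3940.3, 4334.6, 3752.1 and 4357.0 in zinc sulfate and 4938.6, 4466.6, 5452.1 and 5802.2 in MSH. No zinc sulfate rat reached the lowest MSH rat. The difference was -0.47 (SE 0.16, limma p = 0.00600, adjusted p = 0.599, exact permutation p = 0.0286). Against the saline rats, at 3937.2, 4922.7, 4360.8 and 3544.8, MSH was 0.37 higher (SE 0.16, limma p = 0.0273, exact permutation p = 0.0571) and was called, with overlapping groups, whereas zinc sulfate was -0.11 (SE 0.16). The call against saline was lost when saline replicate 1 or 4 or MSH replicate 3 or 4 was left out (0.30 to 0.35), and that against MSH when MSH replicate 4 was left out (-0.40, a fold inside the limit). With arrays centred on their medians instead of quantile normalized, Hspa5 was -0.17 from MSH in zinc sulfate and 0.24 from saline in MSH, and neither was called. Its mean signal was 3629 in PM-L, 4170 in PM-LD and 4334 in PM-HD, beside 4096 in zinc sulfate and 5165 in MSH. Hsp90b1, the HSP90 of the same compartment, read 2984.3, 2740.6, 3370.1 and 2550.8 in zinc sulfate and 2567.1, 3298.1, 2839.7 and 2899.2 in MSH. Those groups overlapped throughout (-0.07, 95% interval -0.46 to 0.33).

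The cytosolic HSP90 proteins, which keep kinases and steroid receptors in an active fold, gave 3 of the 7 lower calls. Hsp90ab1, the constitutive form, read 10134.2, 9316.0, 8850.0 and 8612.0 in zinc sulfate, against 12906.6, 12660.7, 13290.9 and 12807.4 in MSH, and the groups did not overlap. Its difference was -0.61 (SE 0.28, limma p = 0.0429, adjusted p = 0.771, exact permutation p = 0.0286). The saline rats read 4925.5 in replicate 1 and 11946.5, 14819.3 and 13021.8 in the others, so that zinc sulfate against saline was -0.26 (SE 0.28) and not called with replicate 1, and -0.60 and called without it. That saline array also had an atrial mean of 12.5, and the part of this in its low reading was not tested. Hsp90ab1 had mean signals of 7310 in PM-L, 10146 in PM-LD and 9432 in PM-HD, beside 9228 in zinc sulfate.

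Of the 2 Hsp90aa1 probe sets, whose readings cannot be divided between Hsp90aa1, the stress-inducible form, and its pseudogene, the one here numbered 2 read 2795.0, 2879.4, 2382.7 and 2608.1 in zinc sulfate, against 3790.8, 3986.5, 4796.8 and 4282.2 in MSH, again with no overlap. Its difference of -0.76 (SE 0.26, p = 0.00782, adjusted p = 0.622 in limma, exact permutation p = 0.0286) kept its call whichever of the 8 rats was left out. The other probe set read 3528.4, 3672.4, 3770.5 and 3902.3 in zinc sulfate and 3889.8, 4360.1, 5898.9 and 4685.2 in MSH, where the highest zinc sulfate rat just passed the lowest MSH rat (-0.46, SE 0.15, p = 0.00732, adjusted p = 0.606 in limma, exact permutation p = 0.0571). It missed the fold limit without MSH replicate 3 (-0.36). Against saline, at 1582.8, 3665.9, 4392.0 and 3011.4, Hsp90aa1 probe set 2 was called higher in MSH (0.55, SE 0.26, limma p = 0.0436, exact permutation p = 0.0857). Without saline replicate 1, the lowest of the 4, that difference was 0.23 and not called, and it also lost its call without MSH replicate 2, 3 or 4 (0.50 to 0.58). Zinc sulfate against saline was -0.20 (SE 0.26) for this probe set, and it was -0.52 and called without saline replicate 1. In PM-L, PM-LD and PM-HD, probe set 2 had means of 2248, 2553 and 2991, beside 2666 in zinc sulfate. Probe set 1 had 3405, 3811 and 3835 in these groups, beside 3718 in zinc sulfate.

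A second probe set of Hsp90ab1, which is not a member, did not follow the first. It gave 8232 ± 2729 in zinc sulfate and 6320 ± 778 in MSH (SD, n = 4 each), and the difference was 0.17 (SE 0.24, 95% interval -0.32 to 0.66). The readings of the 2 Hsp90ab1 probe sets correlated at r = -0.328 over the 24 rats with the group means removed. Hsp90ab1 was called lower in only 1 of the 8 fits that left out a rat, the one without zinc sulfate replicate 3, and in the other 7 the difference was -0.53 to -0.64. All 4 HSP90 members had negative differences in zinc sulfate against MSH, and 3 were called lower, 2 of them Hsp90aa1 probe sets. Their median was -0.53, beside a median of 0.03 for the 72 members and -0.01 for all probe sets. When arrays were centred on their medians instead of quantile normalized, Hsp90b1 turned to 0.16 and no HSP90 probe set was called (-0.17 to -0.50 for the other 3).

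Among the HSP70 proteins, 3 of 11 were called lower in zinc sulfate than in MSH. The probe set that Hspa1a and Hspa1b share, whose genes make the main stress-inducible HSP70, read 115.1, 200.3, 126.2 and 109.0 in zinc sulfate, against 249.0, 216.2, 655.7 and 219.5 in MSH. Every zinc sulfate signal was below every MSH signal, although the normalized values overlapped, and MSH replicate 3 stood far above its group. The difference was -0.91 (SE 0.41, p = 0.0365, adjusted p = 0.754 in limma, exact permutation p = 0.0857), and it was -0.52 and not called without that rat and was lost too without zinc sulfate replicate 1, 3 or 4 (-0.81 to -0.86). A probe set with the symbol Hspa1a alone read 1101.7, 858.9, 476.7 and 670.3 in zinc sulfate and 745.1, 647.1, 952.2 and 647.4 in MSH. These overlapped throughout, with a difference of 0.03 (SE 0.30, 95% interval -0.59 to 0.64). The genes are near-identical copies, and the division of their RNA between the 2 probe sets is uncertain. On the shared probe set PM-L, PM-LD and PM-HD had means of 184, 186 and 209, beside 138 in zinc sulfate.

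Hspa4, a relative of HSP70 that acts as its nucleotide exchange factor, read 472.1, 329.6, 278.1 and 308.3 in zinc sulfate, against 583.1, 590.8, 456.4 and 475.0 in MSH. Only zinc sulfate replicate 1 reached into the MSH range. The difference was -0.51 (SE 0.24, p = 0.0422, adjusted p = 0.767 in limma, exact permutation p = 0.0857). It lost its call without MSH replicate 1 or 2 or zinc sulfate replicate 2, 3 or 4, with values of -0.36 to -0.52, and with centring on the median (-0.44). PM-L, PM-LD and PM-HD had mean signals of 378.5, 523 and 524, beside 347 in zinc sulfate.

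Dnajb12, a J-domain protein of the endoplasmic reticulum membrane, was the single member called higher in zinc sulfate, against MSH and against saline alike. It was dim, at 72.8, 102.2, 141.6 and 92.6 in zinc sulfate, 76.0, 21.7, 39.8 and 62.7 in MSH and 32.5, 101.2, 65.5 and 10.8 in saline. One MSH rat and 1 saline rat fell within the zinc sulfate range. The differences were 1.08 from MSH (SE 0.46, limma p = 0.0280, exact permutation p = 0.0286) and 1.06 from saline (SE 0.46, limma p = 0.0310, exact permutation p = 0.0857). The call against MSH was lost without MSH replicate 2 or 3 or zinc sulfate replicate 2 or 3 (0.86 to 1.05), and that against saline without saline replicate 1 or 4 or zinc sulfate replicate 2, 3 or 4 (0.62 with saline replicate 4 left out, 0.98 to 1.05 otherwise). Its second probe set, also dim, gave 0.32 for zinc sulfate against MSH.

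The other families held no call in zinc sulfate against MSH, with 0 of 7 small heat shock members, 0 of 10 chaperonin members, 0 of 8 cochaperones and not Hsf1. All 8 cochaperones had positive differences (0.04 to 0.35), of which Bag6, a cochaperone of membrane protein delivery, was above MSH in all 4 zinc sulfate rats without passing the test (0.35, SE 0.24, limma p = 0.162, exact permutation p = 0.0286). The median of all probe sets was -0.01, and the share of them with a positive difference was not computed. From rat to rat, 7 of the 8 cochaperones had an r under -0.5 with the Gapdh ratio, so their signs are not separate observations. That ratio was 1.42 to 1.52 in zinc sulfate replicates 1, 2 and 4 and 2.02 to 3.31 in MSH. The small heat shock protein Hspb6, abundant in muscle, differed by -0.10 (95% interval -0.39 to 0.20) and Hspd1, the mitochondrial chaperonin, by 0.16 (95% interval -0.56 to 0.89). Hspb7, a small heat shock protein of heart and muscle, differed by -0.16, Hspe1 by -0.09, Bag3 by 0.19 and Bag1 by 0.14, with standard errors of 0.29, 0.17, 0.39 and 0.23. These values moved when zinc sulfate replicate 3, whose Gapdh ratio was 5.57, was left out, a check chosen after seeing the data. Without it Hspb6 (0.03), Hspb7 (0.17) and Hspe1 (0.12) turned to positive differences, and Hspd1 (0.51), Bag3 (0.59) and Bag1 (0.37) stood further above MSH, with no call among these 6. For Hspd1 that rat read 2875.8, beside 8110.1 to 10406.6 in the other 3. The interval of Hspd1 rests on the spread within all 6 groups, and without that rat the SE was still 0.33.

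Markers of some other cells differed between the same rats. Over the 6 endothelial markers the mean log2 signal was 10.43, 10.27, 11.91 and 10.24 in zinc sulfate and 11.05, 10.88, 10.84 and 11.07 in MSH, so that 3 zinc sulfate rats lay below all MSH rats, and the summed signals were 8921.5 to 24895.1 and 13632.1 to 16038.4. In the same order the Gapdh ratio was 1.49, 1.52, 5.57 and 1.42 in zinc sulfate and 3.31, 2.36, 2.02 and 3.15 in MSH. Rats with a higher ratio mostly had a higher endothelial mean. The part of RNA quality in these marker values was not tested. The 7 fibroblast markers summed to 17462.1 to 19925.5 in zinc sulfate and 20004.8 to 28025 in MSH, with no overlap. Their mean log2 signals did overlap, at 10.44 to 10.89 in zinc sulfate and 10.70 to 11.36 in MSH. Smooth muscle markers had a group median of 9.06 in zinc sulfate and 9.37 in MSH (sums of 3233.8 to 5963.1 and 4428.3 to 5768.2), and the atrial ones 8.96 and 10.21 (sums of 3154.6 to 17444.4 and 5974.8 to 16316.3). The leukocyte, red blood cell and adipocyte markers overlapped between the groups. Their medians were 8.56, 10.58 and 7.76 in zinc sulfate and 8.75, 10.56 and 7.83 in MSH. The part of endothelial, fibroblast and smooth muscle cells in the calls was not tested.

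With the 9 arrays of a Gapdh ratio above 3 left out, which left 3 zinc sulfate and 2 MSH arrays, 13 members were called in zinc sulfate against MSH, 9 higher and 4 lower, and 11.2% of all probe sets. Only 5 of those 13 were among the 8 called with all arrays: Dnaja1 (-0.83), Hspa5 (-0.42), Hsp90aa1 probe set 1 (-0.63), the Hspa1a/Hspa1b probe set (-1.18) and Dnajb12 (1.41). On the arrays left, the Gapdh ratio was 1.42 to 1.52 in zinc sulfate and 2.02 and 2.36 in MSH. The groups therefore did not overlap in the ratio, and its part in these calls was not tested. With the 6 arrays of an atrial mean above 11 left out, 6 members were called, all of them lower in zinc sulfate and all among the first 8, beside 3.91% of all probe sets. Dnaja1 was lower past both thresholds in zinc sulfate against MSH in every alternative and every fit without a rat that was run, and so was its second probe set.

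In the comparisons with saline the remaining calls were single genes. Cct6a, a subunit of the cytosolic chaperonin that folds actin and tubulin, read 1082.9, 743.1, 794.1 and 417.2 in PM-LD, against 1067.5, 1033.5, 1055.2 and 1218.6 in saline. The difference of -0.57 (SE 0.23, limma p = 0.0215, exact permutation p = 0.114) was -0.34 and not called without PM-LD replicate 4, and it was also lost without saline replicate 4 (-0.51). PM-LD replicate 1 lay within the saline range. In PM-L the same gene was -0.47 from saline (SE 0.23), and all 10 chaperonin members had negative differences there (-0.47 to -0.04), none of them called. The median of all probe sets was 0.0004 there, and the share of them with a negative difference was not computed. From rat to rat, 8 of the 10 chaperonin members had an r under -0.5 with the Gapdh ratio, so their signs are not separate observations.

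Hspa12a, a distant relative of HSP70, read 120.6, 78.5, 212.8 and 240.6 in PM-L, against 88.9, 64.7, 94.1 and 126.2 in saline. The groups overlapped, and the difference of 0.59 (SE 0.28, limma p = 0.0476, exact permutation p = 0.143) was lost without saline replicate 2 or 3 or PM-L replicate 3 or 4 (0.40 to 0.59). The arrays of PM-L replicates 3 and 4, the 2 high readings, had Gapdh ratios of 5.62 and 3.09, and without all arrays above 3 the difference was 0.22 and not called.

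Dnajc27, a small GTPase that carries a J domain, missed the fold limit in 2 comparisons with saline. It read 437.5, 420.6, 535.2 and 411.9 in PM-L, 496.4, 481.1, 428.2 and 408.9 in PM-HD, and 574.7, 583.3, 715.7 and 542.5 in saline. All 8 of these exposed rats were below all 4 saline rats. The differences were -0.41 in PM-L (SE 0.16, p = 0.0186) and -0.41 in PM-HD (SE 0.16, p = 0.0183), each with an exact permutation p of 0.0286, and the folds of 0.753 and 0.752 fell just inside the limit. Both comparisons use the same saline rats. The other groups overlapped the saline range. PM-LD read 458.3, 624.8, 434.4 and 485.5 and MSH 602.2, 573.2, 566.6 and 506.2, with differences of -0.25 and -0.11 (SE 0.16 each), and zinc sulfate gave -0.04 (SE 0.16).

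PM-HD and PM-LD differ in dose, and the weeks of exposure of the PM-LD rats are not known here. Hspa12a read 128.0, 109.5, 137.4 and 129.7 in PM-HD, against 52.6, 70, 152.7 and 43.7 in PM-LD, where 1 rat of the lower dose stood above all of the higher dose (0.64, SE 0.28, limma p = 0.0351, exact permutation p = 0.143). Of the J-domain proteins of the cytosol, Dnajb4 was lower in PM-HD, at 816.3, 1317.1, 824.5 and 622.9, against 1241.2, 1699.4, 878.5 and 1760.0 in PM-LD (-0.62, SE 0.28, limma p = 0.0392, exact permutation p = 0.0857). Dnaja2 was lower too, at 1809.1, 2184.2, 1598.9 and 1356.4 in PM-HD, against 2256.9, 2482.6, 1807.7 and 2872.8 in PM-LD (-0.42, SE 0.19, limma p = 0.0394, exact permutation p = 0.0571). The groups overlapped for both genes.

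These calls were weakly held. Dnaja2 lost its call without PM-HD replicate 3 or 4 or PM-LD replicate 1, 2 or 4 (-0.31 to -0.42), Dnajb4 without PM-HD replicate 1, 3 or 4 or PM-LD replicate 1, 2 or 4 (-0.45 to -0.64), and Hspa12a without any PM-HD rat or PM-LD replicate 1 or 4 (0.48 to 0.65). Both J-domain genes correlated with the Gapdh ratio from rat to rat (r = -0.900 for Dnajb4 and -0.880 for Dnaja2), and 2 of the 4 PM-HD arrays against 1 of the 4 PM-LD arrays had a ratio above 3. With that ratio as a covariate their differences were -0.37 and -0.27, inside the fold limit.

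Hsf1, the regulator of the heat shock response, read 470.1, 555.9, 502.4 and 563.1 in PM-HD and 403.2, 406.1, 454.7 and 374.9 in PM-LD. Every PM-HD rat was above every PM-LD rat, and the difference of 0.30 (SE 0.12, limma p = 0.0267, exact permutation p = 0.0286) came with a fold of 1.23 and was not called. Against saline no exposure moved Hsf1 past the test, with differences of -0.12 to 0.18.

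Among 44 other measured genes of protein folding and of its stress pathways, taken from a list of 49, 0 were called in MSH, PM-LD, PM-L and zinc sulfate against saline and 1 in PM-HD, Sugt1, an HSP90 cochaperone (0.41, SE 0.19, adjusted p = 0.999 in limma). In zinc sulfate against MSH, 2 were higher and 2 lower. Higher were Ppp5c, an HSP90-bound phosphatase (0.54, SE 0.24, adjusted p = 0.754 in limma), and Pdia4, a disulfide isomerase of the endoplasmic reticulum (0.60, SE 0.22, adjusted p = 0.676). Lower were Pfdn1, a prefoldin subunit that hands proteins to the chaperonin (-0.60, SE 0.17, adjusted p = 0.524 in limma), and Clpp, a mitochondrial protease (-0.44, SE 0.20, adjusted p = 0.754). Pdia4 therefore stood opposite to Hspa5, although both serve the same compartment. In PM-HD against PM-LD, Pdia4 (0.50, SE 0.22, adjusted p = 0.90 in limma) and Ddit3, the stress transcription factor CHOP (0.38, SE 0.17, adjusted p = 0.90), were higher. The medians of the 44 genes lay between -0.06 and 0.01 over the 7 comparisons.

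From rat to rat within the groups, many members moved with the Gapdh ratio, a relation looked for after seeing the data. Over the 24 rats, with the group means removed, 39 of the 72 members (54.2%) had an r under -0.5 with the log2 ratio, against 18.7% of all probe sets and 29.9% of those above the median signal. An r above 0.5 was found for 4 members (5.56%), against 19.9% of all. The points share their arrays and the ratio itself, so the members are not separate observations of it.

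The strongest relations were those of Hspb2, a small heat shock protein of muscle (r = -0.978, rho = -0.946), Hspd1 (r = -0.976, rho = -0.954), and Bag3, the cochaperone that removes worn filament proteins together with Hspb8 (r = -0.964, rho = -0.926). Each had a permutation p of 1e-05, the smallest that 100000 permutations within groups can give, among 72 relations computed. Without the 2 rats whose ratio was farthest from the median they were -0.971, -0.970 and -0.967. Within the 15 arrays of a ratio of 3 or less they were -0.830, -0.884 and -0.867, and within the 9 others -0.885, -0.911 and -0.821. Group means were not removed within these 2 sets, so their values also hold differences between groups, unlike the r over all rats. Bag3 had a median signal of 2221 (1560.6 to 3183.8) on the 9 arrays above 3 and of 4816 (3188.1 to 6206.8) on the 15 others, with no overlap, and Hspd1 had 3714 and 7562. Some relations did not hold within both sets of arrays. Cct3, with r = -0.933 over all rats and group means removed, had 0.127 within the 15 and -0.921 within the 9, with group means not removed.

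**Figure D3:**
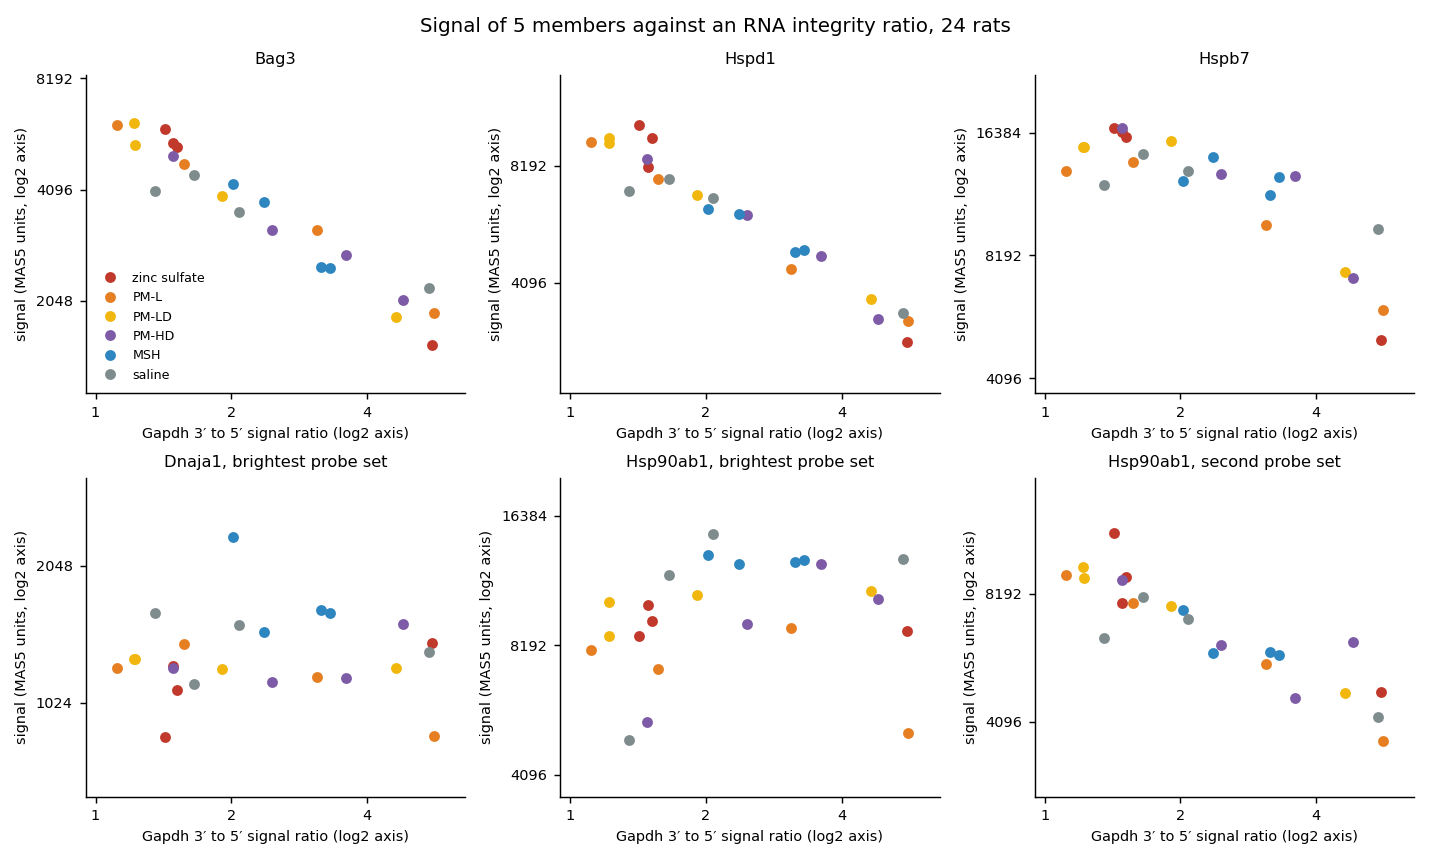
Log2 signal (y axes) of Bag3, Hspd1, Hspb7, Dnaja1 and both probe sets of Hsp90ab1 on the 24 arrays against the log2 Gapdh 3′/5′ ratio (x axes), coloured by group. Bag3, Hspd1 and Hspb7 fall as the ratio rises, Dnaja1 does not (r = -0.03 with group means removed), and the 2 Hsp90ab1 probe sets go opposite ways (r = 0.50 and -0.85).

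By family, an r under -0.5 was found for 8 of 10 chaperonin members (median -0.77), 7 of 8 cochaperones (median -0.80), 5 of 7 small heat shock members (median -0.82), 6 of 11 HSP70 members (median -0.51) and 12 of 31 J-domain members (median -0.36), but for 0 of 4 HSP90 members (median 0.39). The members called in zinc sulfate against MSH were not alike in this. Dnaja1 (-0.03) and Hspa5 (-0.04) were near 0 over all rats, the Hsp90aa1 probe sets were at 0.27 each and Hsp90ab1 was at 0.50. The Hspa1a/Hspa1b probe set (-0.51) and Hspa4 (-0.75) were under -0.5. Within the 15 arrays of a ratio of 3 or less, Dnaja1 had 0.33, Hspa5 0.63 and Hsp90aa1 probe sets 1 and 2 had 0.30 and 0.68. Within the 9 others these turned to -0.37, -0.67, -0.23 and -0.60. Group means were not removed within these sets of arrays. With the log2 ratio as a covariate, 7 of the 8 were still called, all but Hsp90ab1 (-0.52), beside 6.92% of all probe sets. These 8 had been picked by their calls in the fit without it, so this is no separate test. Genes with more than 1 probe set could give different values, as Hsp90ab1 did (0.50 and -0.85), while the 2 probe sets of Dnaja4, a J-domain protein of the cytosol, gave -0.96 each. The part of RNA quality in the levels of these genes was not tested beyond these values.

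**Figure D4:**
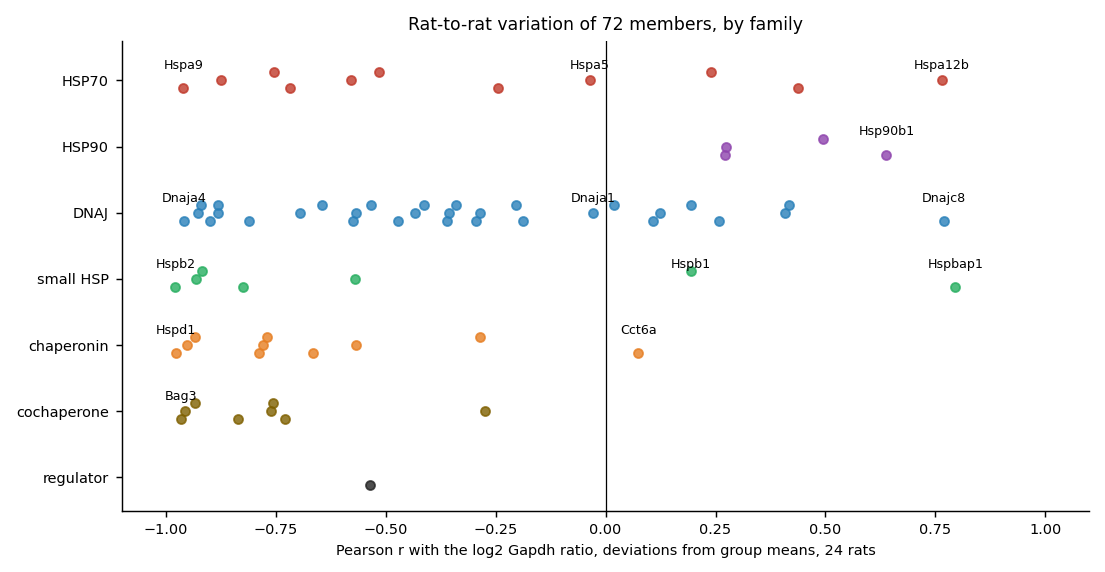
Pearson r of each of the 72 members (points) with the log2 Gapdh 3′/5′ ratio over 24 rats, group means removed, by family. Chaperonin, cochaperone and small heat shock members lie mostly under -0.5, with medians of -0.77, -0.80 and -0.82, and the 4 HSP90 members lie above 0.

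The shared Hspa1a/Hspa1b probe set was compared in the same way with 13 probe sets of inducible chaperones, to see which moved together in single rats. Hsph1, an exchange factor of HSP70, followed it most closely (r = 0.608, permutation p = 0.00111, adjusted over the 13 pairs 0.0144, and rho = 0.697, permutation p = 0.00083, adjusted 0.0108). Its r was 0.569 (adjusted permutation p = 0.0822) without PM-LD replicate 2 and MSH replicate 3, the rats farthest from the median of the Hspa1a/Hspa1b probe set, and no longer passed. By rank, Dnaja1 (rho = 0.477), Hspd1 (0.626), Bag3 (0.589) and Stip1 (0.642), which links HSP70 to HSP90, also passed at adjusted permutation p-values of 0.0387, 0.0187, 0.0254 and 0.0187. Since several of these follow the Gapdh ratio, the correlations were repeated with that ratio held constant. Then Hsp90aa1 probe set 1 (r = 0.751), Hspb1, an actin-guarding small heat shock protein (0.607), and Dnaja1 (0.543) were positive, and Hspe1, the partner of Hspd1, was negative (-0.431), with adjusted permutation p-values of 0.0305, 0.0305, 0.0486 and 0.0305. Hsph1, at 0.382, no longer passed. These values were not recomputed without the 2 rats. With the ratio not held constant, leaving those rats out gave r = 0.337 for Hsp90aa1 probe set 1, 0.330 for Hspb1 and 0.383 for Dnaja1. None of these passed (adjusted permutation p = 0.322 each).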

How the data were processed

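RNA of the left ventricle and septum of 24 rats was hybridised to 1 array each. The authors deposited MAS5 signal intensity values, scaled to a common trimmed mean (software version not given in the sources used here), 1 column per array, for 15923 probe sets. Groups came from the sample labels. Here 57 control probe sets were left out, 16 was added, log2 taken and arrays quantile normalized (limma 3.58.1, R 4.3.3), and 15866 probe sets were fitted with 1 mean per group, moderated tests and Benjamini-Hochberg adjustment. Single values were also tested by exact permutation of 4 rats against 4, and correlations by 100000 permutations within groups (Python 3.11.15, NumPy 2.4.6, pandas 2.3.3, SciPy 1.17.1). Figures used matplotlib 3.10.9. Of the probe sets tested, 12783 carried 1 symbol, 312 several and 2771 none. Symbols of 71 of 72 members matched RefSeq GRCr8. The fits were tested on simulated data with noise drawn independently for each probe set and array. Variation that probe sets share, such as that with the Gapdh ratio, was not simulated. Intensities have no counting depth, so the number of arrays limits the precision, and p-values measure the spread between rats.

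The genes named were those called in each comparison (at most 8 per direction), the 2 brightest members of each family, the HSP90 and Hspa1a probe sets, the inducible chaperones, and the 5 lowest p-values of the F test. The members, lists and tests were chosen with earlier results of these data known. Alternatives were the pseudocount, centring on the median, leaving out dim probe sets, a robust prior that follows the intensity, fewer groups, the replicate number as a block, other fold limits, a gene's probe sets averaged, the Gapdh ratio and atrial transcripts as covariates or as reasons to leave arrays out, and leaving out each rat.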

Additional observations from a re-analysis of the deposited data

Results flagged for a closer look

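In the 30 members named by the rule, the 180 groups of 4 rats were searched for a rat far from its group, by the gap to the nearest rat as a share of the whole range (Dixon's test). Of these, 10 passed, and chance alone flags about 1 in 20 groups. Zinc sulfate replicate 3 was low for Bag3 (1560.6, the others 5353.7 to 5956.1, share 0.863), Dnajc15 (1073.7, the others 3184 to 3569.7, share 0.845) and Hspb7 (5092.3, the others 16003.6 to 16835.3, share 0.929). PM-LD replicate 3 was low for Dnajc15 (1378.5, the others 2925 to 2963.9, share 0.975) and Hspb7 (7471.6, the others 15110.3 to 15604, share 0.939). Both arrays had a Gapdh ratio above 3 (5.57 and 4.64).

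High rats were found for the Hspa1a/Hspa1b probe set in MSH replicate 3 (655.7, the others 216.2 to 249, share 0.925) and in PM-HD replicate 4 (367.1, the others 149 to 168.3, share 0.912), a rat that was high for Hspa5 too (4695.1, the others 4183.7 to 4233.8, share 0.902). The Gapdh ratio was 2.02 on that MSH array and 4.81 on that PM-HD array. Saline replicate 1 was low for Hspb1 (2851.4, the others 3922.6 to 4006.5, share 0.927), on an array whose Gapdh ratio was not above 3. Saline replicate 4, whose Gapdh ratio was 5.48, was low for Hsph1 (570.0, the others 1038.9 to 1081, share 0.918).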

How the results depend on the processing

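The numbers of members called were 2 for MSH, 0 for PM-HD and 1 each for PM-LD, PM-L and zinc sulfate against saline, 8 in zinc sulfate against MSH, 3 in PM-HD against PM-LD and 4 by the F test, and counts this small move easily. Centring on the median gave 0 in MSH, 3 in PM-L, 3 in zinc sulfate against MSH (1 higher and 2 lower, all among the 8), 1 in PM-HD against PM-LD and 1 by the F test. A pseudocount of 1 gave 1 in PM-HD, and one of 64 gave 2 in PM-LD and 2 in PM-L. Without dim probe sets zinc sulfate had 0. With only the 2 groups compared PM-HD had 1, PM-LD 0, PM-L 0 and PM-HD against PM-LD 1, and with 16 arrays of 4 groups MSH had 1 and zinc sulfate 2. Both other fold limits gave 1 in PM-HD and 2 in PM-L, and the mean of all probe sets 2 in PM-L. The Gapdh covariate gave 2 in PM-L, 3 in zinc sulfate and 8 by the F test, and the atrial covariate 2 in PM-L and 2 in zinc sulfate. Without arrays of a Gapdh ratio above 3, PM-LD had 2, PM-L 3, zinc sulfate 2 and zinc sulfate against MSH 13. Without those of an atrial mean above 11, zinc sulfate had 2, PM-L 5, PM-LD 2, PM-HD 1 and MSH 1. The share of all probe sets called was computed again only for zinc sulfate against MSH. From 5.89% it went to 6.92% and 7.12% with the Gapdh and atrial covariates, and to 11.2% and 3.91% without those 2 sets of arrays. Elsewhere it was not recomputed, so the other counts under these settings stand without it. Of the 13 correlations with the Hspa1a/Hspa1b probe set 1 passed by Pearson's r (5 by rank), 0 without 2 rats and 4 with the Gapdh ratio held constant.

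Leaving out 1 rat gave 0 to 4 in MSH, 0 to 2 in PM-HD, 0 to 4 in PM-LD, 0 to 4 in PM-L, 0 to 3 in zinc sulfate, 4 to 12 in zinc sulfate against MSH (4 without MSH replicate 3, 12 without zinc sulfate replicate 3), 0 to 6 in PM-HD against PM-LD (6 without PM-LD replicate 3) and 1 to 6 by the F test. Without zinc sulfate replicate 3 the calls against MSH went both ways. Dnajb2, Dnajb4, Dnajc12, Dnajc21, Dnajc24 and Hspa13 were called higher, and Dnaja1, Dnajb1, Hspa5, Hsp90ab1 and both Hsp90aa1 probe sets lower. Those called higher had an r of -0.90 to -0.53 with the Gapdh ratio, and those called lower one of -0.04 to 0.50. The ratio was then 1.42 to 1.52 in zinc sulfate and 2.02 to 3.31 in MSH. The share of all probe sets called was not computed for that fit or for the others without 1 rat. Same-numbered rats correlated between groups at -0.241 to 0.308 over 28 pairs of rats (4 in each of 7 comparisons), so the numbers were not taken as pairs. With the replicate number as a block, zinc sulfate against MSH kept all 8 calls, and against saline PM-LD had 2, PM-L 2 and zinc sulfate 2.

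Among the differences recomputed under every setting, direction turned only in ones that were not called. Hsp90aa1 probe set 1 in zinc sulfate against saline was 0.0328 with centring. Hsp90b1 was 0.10 against saline and 0.16 against MSH with centring, 0.0038 against MSH with the Gapdh covariate, and 0.0366 against saline without the atrial arrays, and without 1 rat -0.17 to 0.0492 and -0.20 to 0.0121. Hspa1a was -0.11 against MSH with the Gapdh covariate, -0.0102 against saline and -0.0435 against MSH without the atrial arrays, and without 1 rat -0.13 to 0.30 against saline and -0.16 to 0.27 against MSH. The cause was not tested. Of 418 values of single genes under the other settings, 352 kept direction and side of the thresholds, 48 lost and 10 gained a call and 8 turned.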

Other observations

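Other probe sets of member genes, which the set does not count, were called in a few comparisons. A second Bag6 probe set was 1.56 higher in zinc sulfate than in MSH, where the first was 0.35 and not called. A second, dim probe set of Dnajc17 was 1.17 higher in zinc sulfate than in MSH and 1.08 higher than in saline, and a dim one of Dnajc6 was -0.96 in PM-L against saline. Second probe sets of Hspa9, the HSP70 of mitochondria, and of Hspb8 gave 1.42 and 1.43 for zinc sulfate against MSH, beside 0.54 and 0.01 for their members, and correlated with the Gapdh ratio at -0.90 and -0.97.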
